A study of Mus musculus with 5 samples.

Results

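LTR retrotransposons are the subject here: the repeat rows of the deposited count tables whose name begins with IAP, ETn, RLTR, MERVL, MuRRS, MMERV, MT2, MTA, MTB, MTC, MTD, MTE or ORR1. The choice used names alone, and it took 1533 of the 8654 repeat rows, among 24288 features in all. RLTR had 521 rows, ORR1 385, MT2 142, IAP 134, MTE 101, MTD 59, MTC 55, MTB 44, MTA 24, ETn 22, MMERV 18, MuRRS 15 and MERVL 13. Single mouse cells had been sorted 1 per well into 5 plates of 96 wells and profiled by tagged reverse transcription, which puts a well's barcode on the cDNA before pooling. Embryonic stem (ES) cells of the line R1, labelled as growing in spheres, filled 3 plates. Neuro2A, which derives from a mouse neuroblastoma, and embryonic fibroblasts of the mouse (MEF), both kept in medium with serum, filled 1 plate each. The labels used here name no treatment, allele or strain for any group, and they do not tie the ES plates to separate cultures, so the spread between these plates may be technical.

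LTR retrotransposons are remnants of retroviruses that copy themselves through RNA, and each full copy has an internal part between a pair of long terminal repeats (LTRs) that hold its promoter. IAP, ETn and MMERVK10C belong to the class II (ERVK) elements, the group with most recent activity in the mouse, and are silenced in ES cells by histone H3 lysine 9 methylation and in differentiated cells mainly by DNA methylation. MERVL and its LTR, MT2_Mm, are class III (ERVL) elements known for a burst of transcription in the early embryo, and the older MaLR elements (MTA to MTE and ORR1) are their non-autonomous relatives. MuRRS is a class I element, and RLTR names are LTRs and internal parts from several classes. No sequence of these elements is printed, since none was at hand.

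Wells with at least 1000 reads on genes were kept: 93, 66 and 94 of ES replicates 1, 2 and 3, 86 of Neuro2A and 92 of MEF. They held 11432543, 262517, 2134248, 3155092 and 2930884 gene reads, in that order. Repeats took 26.05%, 82.8%, 40.0%, 24.5% and 22.9% of all reads, so ES replicate 2 stood apart from every other plate. The 96 barcodes were the same in all plates. Of 8 ES markers all were read in each ES plate, while 7 were at 0 in Neuro2A and 6 in MEF. Of 8 MEF markers none was at 0 in ES replicate 3, where they summed to 3642 reads per 1000000 gene reads (RPM from here on) against 25048 in MEF, 87.7 in ES replicate 1 and 709 in ES replicate 2. Neuro2A markers summed to 145 in MEF against 1484 in Neuro2A. Genes that mark MEF came to a median of 10.8% of their MEF reads in ES replicate 3, and genes that mark Neuro2A to 9.45% of their Neuro2A reads in MEF, and the levels of both plates are also given with such reads, called carried over here, subtracted. Their source was not tested.

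LTR rows held 271217 reads in ES replicate 1, 165697 in ES replicate 2, 51142 in ES replicate 3, 178323 in Neuro2A and 78357 in MEF. In RPM these were 23723, 631186 and 23962 for ES, 56519 for Neuro2A and 26735 for MEF. ES replicates 1 and 3 were alike and close to MEF, Neuro2A lay above them, and ES replicate 2 lay far above every other plate. The ratio of Neuro2A to the geometric mean of ES replicates 1 and 3 was 2.37, and that of MEF was 1.12. The share of repeat reads gave another order of plates, at 5.89%, 11.3% and 3.09% for ES, 14.4% for Neuro2A and 7.71% for MEF. On that scale ES spread from the lowest to the second highest value, with a mean of 6.75% ± 4.15 (SD, n = 3). Each plate's exact 95% binomial interval was narrow, for example 14.37% to 14.49% in Neuro2A, but these intervals cover counting error only, since the protocol uses no molecular identifiers and PCR copies are counted as reads. With 3 plates against 1, a permutation test cannot reach 0.05, and with 1 plate of MEF and 1 of Neuro2A the plate and the cell type cannot be told apart.

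The deepest barcode of ES replicate 2, CCATA, held 1034708 reads. It took 25.9% of the gene reads of the kept wells of its plate, 65.1% of the repeat reads and 72.5% of the LTR reads, 120053 in number. Without it the LTR level of ES replicate 2 was 234639 RPM, still 9.84 times the geometric mean of ES replicates 1 and 3, and the share of repeat reads was 8.89%. Reads fell on 1115 LTR rows in that well, and 460 of the 1245 rows with reads in the kept wells of the plate had theirs nowhere else in it. The well was not the only one of its kind: 31 of 66 wells of ES replicate 2 had over 2 repeat reads per gene read, against 2, 0, 1 and 8 in ES replicates 1 and 3, Neuro2A and MEF. These 31 wells held 62.0% of the plate's gene reads and 96.7% of its LTR reads. With such wells left out of every plate, ES replicate 2 came to 55202 LTR RPM and 5.16% of repeat reads, the other ES plates to 23660 and 23962, Neuro2A to 56420 and MEF to 21561.

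**Figure D1:**
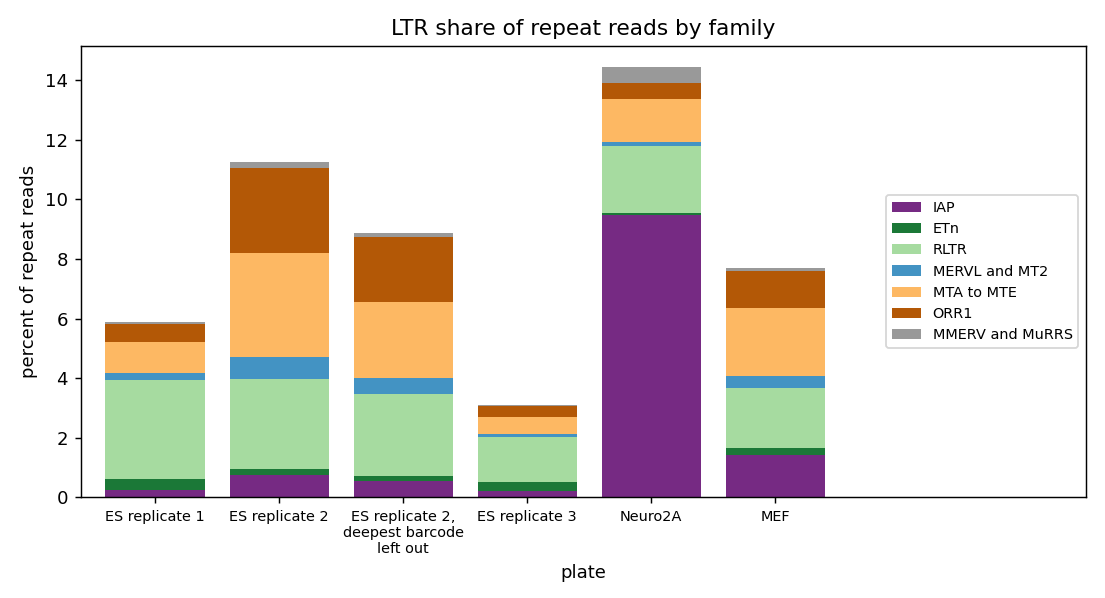
Reads of each LTR family group as a percentage of all repeat reads, by plate, as stacked bars, with ES replicate 2 also shown without its deepest barcode. Neuro2A reaches 14.4%, of which IAP is the tallest segment, while RLTR is the tallest segment in ES replicates 1 and 3.

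The make-up of the LTR reads differed between plates. IAP made up 65.8% of the LTR reads of Neuro2A, 18.6% of those of MEF and 3.87%, 6.74% and 7.20% of those of ES replicates 1, 2 and 3. RLTR rows made up 56.1%, 27.0% and 49.1% in ES, 15.5% in Neuro2A and 25.9% in MEF. MaLR rows made up 27.98%, 56.5% and 30.2% in ES, 13.7% in Neuro2A and 45.8% in MEF. Neuro2A was thus an IAP plate, ES replicates 1 and 3 were RLTR plates, and ES replicate 2 and MEF had MaLR as the largest class. Counts are not divided by the length or copy number of an element, so these are shares of reads and not an order of expression.

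**Figure D2:**
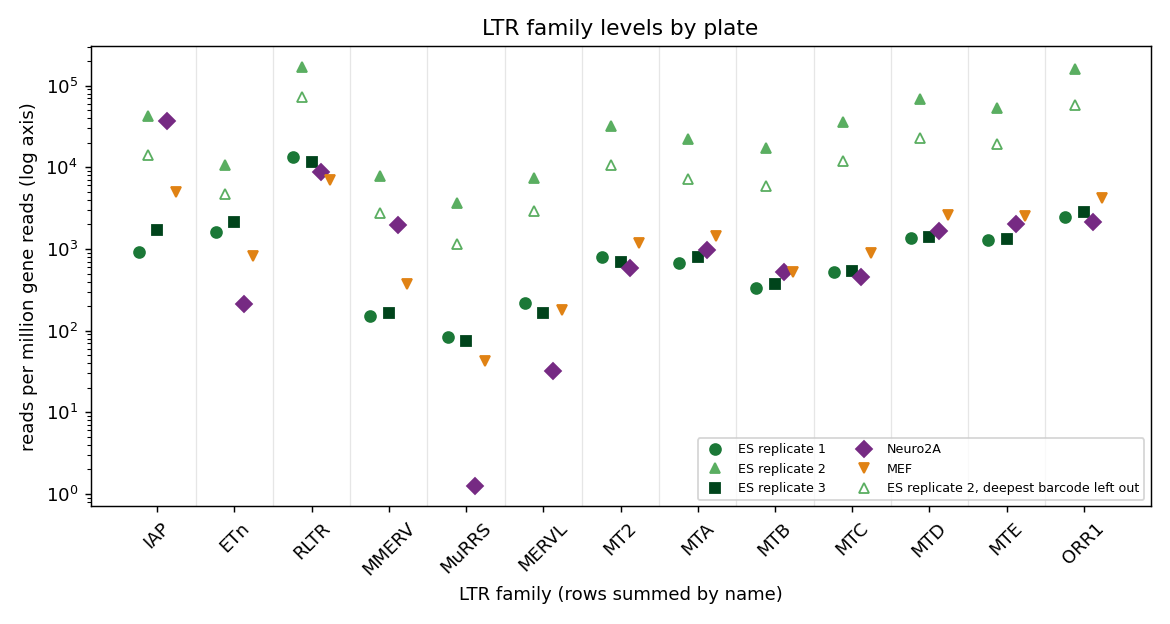
Levels in RPM of the 13 families (log axis) in the 5 plates, with an open triangle for ES replicate 2 without its deepest barcode. ES replicate 2 is the highest plate in every family, Neuro2A is nearest to it for IAP and MMERV, and the MaLR families of the other 4 plates lie far below those of ES replicate 2.

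IAP (intracisternal A particle) elements were higher in Neuro2A than in MEF and ES replicates 1 and 3, and lower than in ES replicate 2. IAP levels in RPM were 917, 42531 and 1724 for ES replicates 1, 2 and 3, 37167 for Neuro2A and 4977 in MEF. ES replicate 2 fell to 14342 without its deepest barcode and to 2973 without repeat-rich wells. Neuro2A was 29.6 times the geometric mean of ES replicates 1 and 3, and the groups overlapped only through ES replicate 2. In the edgeR quasi-likelihood test over all plates the family was not called between ES and Neuro2A (log2 fold change -1.64, SE 2.72, adjusted p = 0.754). Without wells of over 2 repeat reads per gene read, a setting chosen after the data were seen, the family was lower in ES (log2 fold change -4.53, SE 0.77, adjusted p = 0.0260), with all 3 ES plates below Neuro2A. That setting removes wells by repeat reads per gene read, to which the tested reads belong, and it took 96.7% of the LTR reads of ES replicate 2, so it is no independent test. With ES replicate 2 left out whole, the log2 fold change was -4.91 (SE 0.93, unadjusted p = 0.00231, adjusted p = 0.48). Among the family sums, genes and other repeats without repeat-rich wells, 0.0449% of 13357 features were called lower and 0.464% higher in ES. Against MEF that fit called no family and 0.0898% of features higher. At an unadjusted p under 0.05 there was 1 of 13 families, beside 994 of 13357 features.

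The IAP signal of Neuro2A was carried by a few related rows of the type 1 LTR and its internal part. IAPLTR1_Mm-int stood at 10976 RPM in Neuro2A, 1029 in MEF and 130, 5123 and 380 in the ES plates. IAPLTR1_Mm, the LTR, stood at 8008 in Neuro2A, 921 in MEF and 215, 731 and 301 in ES, so all 3 ES plates lay below both other plates. With carried-over reads subtracted MEF stood at 118, below all 3 ES plates (215, 731 and 192). IAPLTR1a_Mm-int stood at 6818, 871 and 23.2, 8144 and 265. IAPLTR1_Mm-int held 29.5% of Neuro2A's IAP reads and IAPLTR1_Mm 21.5%. IAPEz-int, an internal part of the same family, was far lower in Neuro2A, at 319 RPM against 31.4 in MEF and 4.199, 3996 and 24.8 in ES. The last of these rows was chosen after its values were seen, as were IAPLTR1_Mm and IAPLTR1a_Mm.

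Some rows that carry 2 names were also highest in Neuro2A. IAPEz-int with IAPLTR1_Mm-int had 1962 RPM in Neuro2A, 106 in MEF and 0.525, 644 and 44.98 in ES. IAPLTR1_Mm-int with IAPLTR2_Mm-int had 274 in Neuro2A, 0.682 in MEF and no read in the kept wells of any ES plate. Of the 10 rows most lower in ES than in Neuro2A by ratio, with every ES plate below, 7 were IAP rows. IAP made up 73 of the 518 LTR rows tested. Over all features tested, every ES plate was below Neuro2A for 21.3%, and over the 518 LTR rows tested for 42, or 8.11%.

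IAP reads were present in all 86 kept Neuro2A wells. The per-well level in Neuro2A had a lowest value of 1885, a median of 36881 and a highest value of 222847 RPM, with a coefficient of variation of 64.6%. In ES replicates 1 and 3 the medians were 423 and 1572, in ES replicate 2 it was 6556, and in MEF 7449. A level over 10000 was found in 83 of 86 Neuro2A wells, 37 of 92 MEF wells, 28 of 66 wells of ES replicate 2, and 2 wells each of ES replicates 1 and 3. With each well thinned to 1000 gene and repeat reads, an IAP read was found in 86 of 86 Neuro2A wells, 83.7% of MEF wells (exact 95% binomial interval 74.5% to 90.6%), 81.8% of wells of ES replicate 2, 57.4% of ES replicate 3 and 25.8% of ES replicate 1. Cells of a plate are not replicates, and these shares describe the plates.

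**Figure D3:**
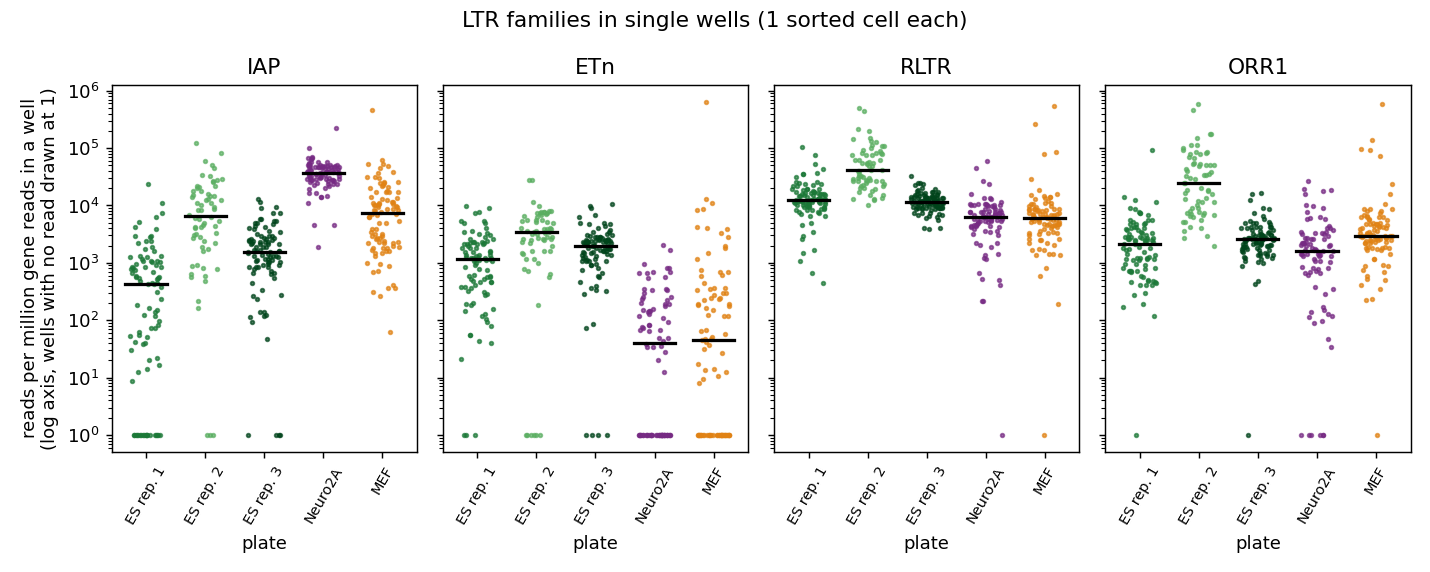
Levels in RPM of IAP, ETn, RLTR and ORR1 in single kept wells (log axis), 1 point per well, with the median of the plate as a black bar and wells without a read drawn at 1. The Neuro2A median is above those of the other plates for IAP (36881) and below them for ETn (40.5), and 1 MEF well lies far above the others for ETn.

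The number of IAP reads in MEF wells rose with that in Neuro2A wells of the same barcode, less so once divided by gene reads. At the 84 barcodes kept in both plates, MEF had 12.2% as many IAP reads as Neuro2A, and Spearman's rho between the 2 read counts was 0.82, given as a description over wells that share barcodes but not cells. Gene reads at the same barcodes had a rho of 0.38, MMERV reads 0.47, RLTR reads 0.45, ETn reads 0.26 and ORR1 reads 0.27. With MEF taken in RPM instead of reads, rho was 0.37 for IAP, 0.32 for MMERV and 0.30 for RLTR. It was then 0.17 for ETn and 0.11 for ORR1. IAP reads of ES replicate 1 against Neuro2A had a rho of 0.09 over 83 barcodes, with 7.84% as many reads. ES replicate 3 had 3.11% as many IAP reads as Neuro2A, with a rho of 0.79 over 85 barcodes and 0.50 for gene reads. It had 25.2% as many as MEF, with a rho of 0.82 over 91 barcodes. Between MEF and ES replicate 3, gene reads had a rho of 0.54, ORR1 reads 0.63, MMERV 0.49, RLTR 0.48 and ETn 0.29. With ES replicate 3 taken in RPM, rho for IAP was 0.38 against Neuro2A reads and 0.45 against MEF reads. For MMERV it was then 0.33 and 0.40. With carried-over reads subtracted, IAP in MEF fell from 4977 to 1716 RPM, ES replicate 3 was at 1162, and IAPLTR1_Mm in MEF fell from 921 to 118, which turned its order against ES. The ratio of Neuro2A to MEF was 7.47 as deposited and 21.7 after the subtraction, and the ratio of MEF to ES replicates 1 and 3 was 3.96 as deposited and 1.66 after it.

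MMERVK10C, a class II provirus, showed the same order of plates as IAP. MMERV levels in RPM were 153, 7809 and 164 in ES, 1995 in Neuro2A and 376 in MEF, and 99.2% of Neuro2A's were on the row MMERVK10C itself. ES replicate 2 fell to 2745 without its deepest barcode and to 591 without repeat-rich wells, and MEF fell to 194 with carried-over reads subtracted. Neuro2A was 12.6 times the geometric mean of ES replicates 1 and 3 and 5.30 times MEF. The family was not called in any fit. In edgeR its log2 fold change of ES over Neuro2A was 0.10 (SE 2.33, adjusted p = 0.988) over all plates, -3.75 (SE 0.76, adjusted p = 0.512) without ES replicate 2 and -2.99 (SE 0.84, adjusted p = 0.191) without repeat-rich wells, so the fitted direction turned with that plate. RLTR33, chosen after its values were seen, also had its highest level outside ES replicate 2 in Neuro2A, at 1658 against 124 in MEF and 4.99, 1958 and 49.2 in ES, but 1 well held 81% of its Neuro2A reads and another 70% of its MEF reads.

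ETn elements (early transposons), whose transcripts are known from ES cells and the early embryo, were read most in ES. ETn levels in RPM were 1621, 10639 and 2138 for ES replicates 1, 2 and 3, 214 for Neuro2A and 811 in MEF, so every ES plate lay above both other plates. ES replicate 2 was at 4770 without its deepest barcode and 2613 without repeat-rich wells. The ratio of ES replicates 1 and 3 to Neuro2A was 8.70 and to MEF 2.30. In MEF, 71.9% of the ETn reads came from 1 well, GGTCC, which had 2644 gene reads, and without that well MEF stood at 228. The edgeR test did not call the family against Neuro2A (log2 fold change 4.22, SE 1.99, adjusted p = 0.556) or MEF (2.26, SE 1.75, adjusted p = 0.661).

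The rows that name the LTR of these elements, RLTRETN, were counted by their name among RLTR, and they showed the ES pattern more sharply. RLTRETN_Mm-int, the row with the most LTR reads in ES replicates 1 and 3 among those described, stood at 3047, 6301 and 2535 RPM in ES, 138 in Neuro2A and 179 in MEF. It was chosen after its values were seen. RLTRETN_Mm, the LTR itself, stood at 1712, 9428 and 1039 in ES, 147 in Neuro2A and 73.0 in MEF. ETnERV stood at 1261, 3124 and 1589 in ES, 66.6 in Neuro2A and 95.5 in MEF, of which 71% in MEF lay in 1 well. For each of these 3 rows the lowest ES plate was above the higher of the other plates. Without its deepest barcode ES replicate 2 stood at 3784, 5598 and 1902.

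The row that joins RLTRETN_Mm-int to ETnERV was close between the ES plates, at 553, 705 and 489 RPM, with 62.8 in Neuro2A and 1.02, or 3 reads, in MEF. It had an unadjusted p of 0.00126 against MEF and of 0.0290 against Neuro2A in edgeR's quasi-likelihood test, and an adjusted p of 0.666 and 0.559. The row was named for its large ratio of ES to MEF in these same plates, so its p-value against MEF is no independent support. Over all 33 ETn and RLTRETN rows together, a grouping made after the values were seen, the levels were 6968, 27293 and 6217 in ES, 561 in Neuro2A and 1090 in MEF. Without repeat-rich wells they were 6966, 8980 and 6217 in ES, 561 and 401, where the setting itself lowers the repeat reads of ES replicate 2. The ratio of ES replicates 1 and 3 to MEF was 6.04 in all kept wells and 16.4 without repeat-rich wells, and that to Neuro2A was 11.7 in both. These rows held 29.4% and 25.9% of the LTR reads of ES replicates 1 and 3, against 4.32% in ES replicate 2, 0.993% in Neuro2A and 4.08% in MEF.

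High ETn levels were found in most ES wells and few others. A level over 1000 RPM was found in 51 of 93, 54 of 66 and 74 of 94 wells of the ES plates, in 2 of 86 Neuro2A wells and in 14 of 92 MEF wells. Median wells stood at 1152, 3386 and 1951 in ES, 40.5 in Neuro2A and 45.8 in MEF. With wells thinned to 1000 reads, an ETn read was found in 44.1%, 59.1% and 59.6% of ES wells, 6.98% of Neuro2A wells (exact 95% binomial interval 2.60% to 14.6%) and 20.7% of MEF wells (12.9% to 30.4%). Reads at the same barcode of Neuro2A and ES replicate 3 had a rho of 0.37 for ETn, below that of gene reads.

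RLTR rows as a whole stood at 13308, 170248 and 11763 RPM in ES, 8756 in Neuro2A and 6915 in MEF. Every ES plate was above both others, and ES replicate 2 was at 72580 without its deepest barcode. Most of the difference between ES replicates 1 and 3 and the other plates lay in the 11 RLTRETN rows, at 5347, 16654 and 4079 in ES against 347 in Neuro2A and 279 in MEF. The other 510 RLTR rows stood at 7960, 153594 and 7684 in ES, 8409 in Neuro2A and 6636 in MEF, which puts ES replicates 1 and 3 at 0.930 times Neuro2A and 1.18 times MEF. RLTR19-int, an internal part and 1 of the 2 RLTR rows named for their number of reads, stood at 2732, 4099 and 1572 in ES, 1264 in Neuro2A and 1031 in MEF.

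Single RLTR rows separated ES from Neuro2A. RLTR9E, an LTR of class II, stood at 825, 2301 and 370 RPM in the ES plates and 33.8 in MEF, while Neuro2A had 1 read, or 0.317. It was read in 71 of 93, 56 of 66 and 69 of 94 ES wells, in 13 MEF wells and in 1 Neuro2A well. RLTR10C-int stood at 22.6, 2023 and 431 in ES, 15.4 in MEF and 0.317, or 1 read, in Neuro2A, with 2416 in ES replicate 2 without its deepest barcode. RLTR20B1 stood at 27.8, 1802 and 89.0 in ES, 33.4 in MEF and 0 in Neuro2A, where 3 reads would have been 0.951. RLTR9E had an edgeR adjusted p of 0.488 in all kept wells and 0.0171 without repeat-rich wells, where it was the only LTR row called higher in ES than in Neuro2A. It was named for its large ratio of ES to Neuro2A in these same plates, so these p-values are no independent support. RLTR22_Mur and RLTR41 were low in Neuro2A alone, at 0.634 and 1.58 there, 155, 3009 and 62.8 and 108, 2274 and 124 in ES, and 99.3 and 184 in MEF. Of MEF's RLTR41 reads, 80% lay in 1 well.

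Against MEF, the 10 rows most higher in ES by ratio included 8 RLTR rows, where RLTR made up 195 of the 518 LTR rows tested. Every ES plate was above MEF for 19.9% of the LTR rows and 29.6% of all features tested. RLTR11A stood at 433, 3604 and 191 RPM in ES, 83.4 in Neuro2A and 21.5 in MEF. RLTR31B_Mm stood at 83.8, 735 and 22.5 in ES, 0 in Neuro2A and 1.71 in MEF, though 81% of its reads in ES replicate 3 lay in 1 well. RLTR27 stood at 89.5, 1059 and 33.7 in ES, 22.5 in Neuro2A and 0.682, or 2 reads, in MEF. The rows most lower in ES than in MEF were of another kind, since in 9 of 10 of them a single MEF well held over 70% of the MEF reads. The most read of these, ETnERV2 with RLTRETN_Mm-int, stood at 591 in MEF, 98% of it in GGTCC, and at 1.84, 126 and 77.8 in ES.

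**Figure D4:**
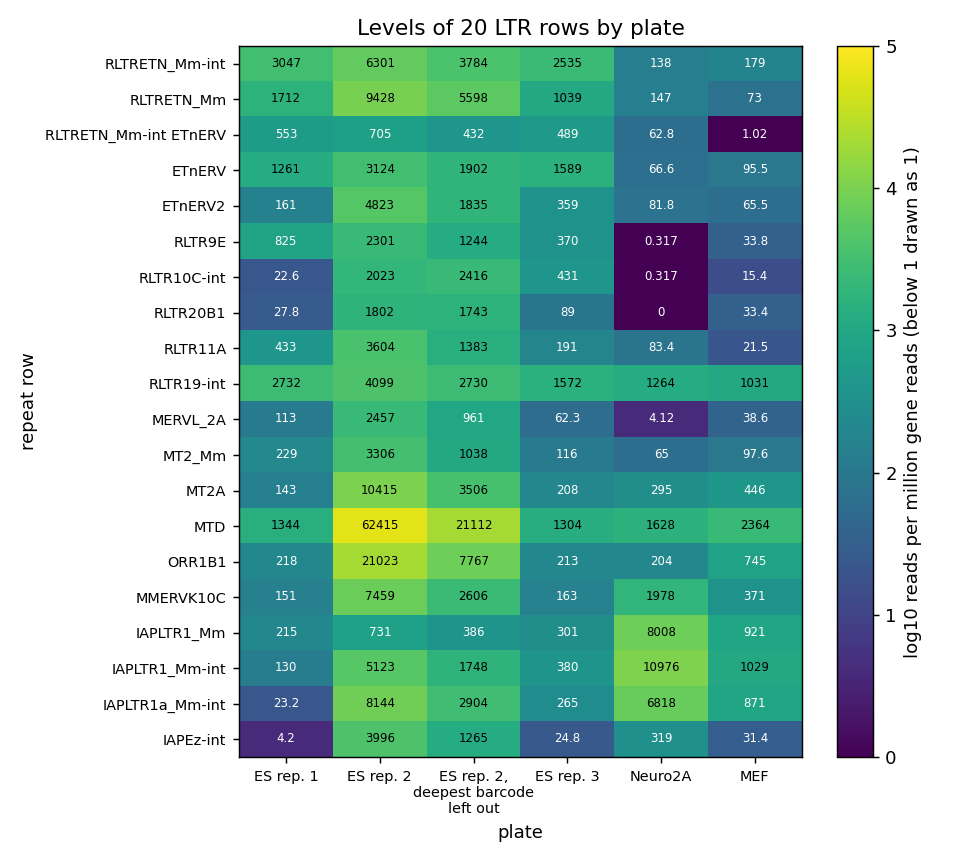
Levels in RPM of 20 LTR rows in each plate, printed in the cells, with the colour giving the log10 level. Rows of ETn, RLTRETN and RLTR9E are higher in the ES columns than in the others, and MTD, MT2A and ORR1B1 are highest in ES replicate 2. IAPLTR1_Mm and IAPLTR1_Mm-int are highest in Neuro2A. IAPLTR1a_Mm-int, IAPEz-int and MMERVK10C are highest in ES replicate 2, with Neuro2A the next plate.

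The sums of the MERVL rows and of the MT2 rows, both class III, showed no common order of plates outside ES replicate 2. MERVL levels in RPM were 216, 7508 and 164 in ES, 32.3 in Neuro2A and 177 in MEF, and ES replicate 2 fell to 2884 without its deepest barcode. ES replicates 1 and 3 were 5.81 times Neuro2A and 1.06 times MEF. MERVL_2A stood at 113, 2457 and 62.3 in ES, 4.12 in Neuro2A and 38.6 in MEF, and MERVL-_Mm at 2.19, 1558 and 11.7 in ES, 0.317 in Neuro2A and 63.8 in MEF. In ES replicate 1, 27.5% of the MERVL reads came from 1 well, which left 159 without it.

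MT2 levels in RPM were 788, 32253 and 688 in ES, 584 in Neuro2A and 1199 in MEF, which put MEF above ES replicates 1 and 3. MT2_Mm, the LTR of MERVL, chosen after its values were seen, stood at 229, 3306 and 116 in ES, 65.0 in Neuro2A and 97.6 in MEF. It held 29.0%, 10.3% and 16.9% of the MT2 reads in ES, 11.1% in Neuro2A and 8.14% in MEF. Outside ES replicate 2, MT2_Mm and MERVL_2A had the same order: ES replicate 1, ES replicate 3, MEF, Neuro2A. MERVL-_Mm had another order, with MEF highest. MT2A, the MT2 row with the most reads, stood at 143, 10415 and 208 in ES, 295 in Neuro2A and 446 in MEF. Of 14 genes of the 2-cell stage that are linked to MERVL, 4 had a read in any kept well. Zfp352, a gene whose transcript is known from the early embryo, stood at 6.47, 11.4 and 5.62 in ES and 0 in Neuro2A and MEF. Zscan4d, a marker of the 2-cell-like state of ES cells, was read in ES replicate 2 alone, at 7.62, which is below the 11.4 that 3 reads give there.

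MuRRS, the class I element, had few reads. Its level was 82.5, 3634 and 74.0 RPM in ES, 1.27 in Neuro2A, from 4 reads, and 43.0 in MEF, from 126 reads. In ES replicate 1, 71.4% of MuRRS reads came from 1 well and the level was 24.5 without it, and in MEF 1 well held 50% and left 21.5. DESeq2 called the family higher in ES than in Neuro2A (adjusted p = 0.0015) and MERVL likewise (adjusted p = 0.0429), where it called 7.26% of 14676 features higher and 0.368% lower, while edgeR called neither (adjusted p = 0.556 for both). Against MEF, DESeq2 called no family, where it called 1.42% of features higher and 0.0136% lower. In that fit 0 families had an unadjusted p under 0.05, beside 1484 of 14676 features.

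The MaLR families stood higher in MEF than in ES replicates 1 and 3, and far higher in ES replicate 2. MTD levels in RPM were 1370, 67912 and 1391 in ES, 1660 in Neuro2A and 2578 in MEF. ORR1 stood at 2460, 160553 and 2826 in ES, 2126 in Neuro2A and 4264 in MEF, and MTE at 1287, 52720 and 1327 in ES, 2050 and 2517. MTA stood at 668, 22109 and 791 in ES, 965 in Neuro2A and 1462 in MEF. MTB stood at 338, 17218 and 376 in ES, 519 and 529, and MTC at 516, 36051 and 537 in ES, 450 and 886. MEF was above ES replicates 1 and 3 in each of the 6 families, by 1.48 times for MTB to 2.01 times for MTA, and Neuro2A lay between 0.806 times (ORR1) and 1.57 times (MTE). ES replicates 1 and 3 differed by at most 1.18 times in each of these families, although 49.0% of the MTD reads of ES replicate 1 came from 1 well and left 716 without it. In MEF 23.9% of MTA reads lay in GGTCC, which left 1114 without it, and 22.8% of MTB reads in another well, which left 419. In Neuro2A 40.7% of MTB reads lay in 1 well, which left 316, below the 338 and 376 of ES replicates 1 and 3. The median MEF well was below that of ES replicate 3 for MTA (539 against 646) and MTB (170 against 261). In MEF 8 repeat-rich wells held 20.1% of LTR reads and 0.911% of gene reads.

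Subtraction of carried-over reads moved the other families of ES replicate 3 and MEF less than IAP and MMERV. In ES replicate 3 and MEF, ETn then stood at 2370 and 877, RLTR at 12562 and 6791, and MERVL at 160 and 193. MuRRS stood at 81.0 and 47.6, MT2 at 610 and 1268, and the MaLR families together at 6373 and 12713 instead of 7248 and 12236. The 33 ETn and RLTRETN rows stood at 7089 and 1153.

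ES replicate 2 differed most from its group in MTC and ORR1. Over the 6 MaLR families its level was 30.4 (MTA) to 68.5 (MTC) times the geometric mean of ES replicates 1 and 3, and 9.88 to 23.05 times without the deepest barcode. MMERV, MuRRS and MT2 lay within that range, at 49.3, 46.5 and 43.8 times. For ETn the same ratios were 5.72 and 2.56, the smallest of the 13 families, and for RLTR 13.6 and 5.80. Without repeat-rich wells MTA stood at 1211, MTC at 2202 and ORR1 at 10192 in ES replicate 2, against 664, 514 and 2453 in ES replicate 1. The share of MaLR in LTR reads was 57.6% in the deepest barcode alone. LINE rows moved with them, at 43372, 1491220 and 39035 RPM in ES, 26763 in Neuro2A and 47310 in MEF, and the part of repeat-rich wells in this was not tested beyond leaving them out.

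Across all plates edgeR's quasi-likelihood test called no LTR row and no feature at all. It tested 15181 features with Benjamini-Hochberg adjustment, 518 of them LTR rows, and percent called was 0 for both comparisons in both directions. At an unadjusted p under 0.05, 9 LTR rows were higher and 0 lower in ES than in MEF, 1.74% and 0%, against 3.58% and 0.843% of all features. Against Neuro2A, 22 LTR rows were higher and 3 lower, 4.25% and 0.579%, against 5.82% and 1.82% of all features. Without ES replicate 2 the balance turned: of 357 LTR rows tested, 7 were higher and 13 lower than in MEF at that threshold (1.96% and 3.64%, against 1.96% and 2.32% of all features), and 18 higher and 24 lower than in Neuro2A (5.04% and 6.72%, against 4.88% and 2.17%). Of the LTR rows tested, 19.9% had every ES plate above MEF and 30.7% every ES plate above Neuro2A, against 29.6% and 31.8% of all features. Over the same 518 LTR rows, filtered with ES replicate 2 included, ES replicates 1 and 3 were both above MEF for 106 (20.5%). They were both below it for 197 (38.0%), against 34.1% and 35.4% of all features. They were above Neuro2A for 165 (31.9%) and below for 149 (28.8%), against 36.7% and 28.1%. Without ES replicate 2, 161 fewer LTR rows were tested, so these counts include rows that entered through that plate. The common dispersion was 2.03, a biological coefficient of variation of 143%, from 2 residual degrees of freedom. In data simulated at a dispersion of 2 for ES against MEF, 0 of 200 features with 4-fold and 0 of 200 with 32-fold changes were called, and at a dispersion of 0.1 the numbers were 79 and 200.

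DESeq2 called more. It called 10 LTR rows higher and 0 lower in ES than in MEF, where it called 1.27% of all features higher and 0% lower. It called 71 LTR rows higher and 2 lower in ES than in Neuro2A, 13.7% and 0.386% of the 518, against 7.14% and 0.296% of all features. RLTRETN_Mm-int with ETnERV was called against MEF (adjusted p = 2.7e-05), and RLTR9E (1.4e-05), ETnERV (0.0123) and RLTRETN_Mm-int (0.0130) against Neuro2A. The rows called lower were IAPLTR1_Mm (0.0214) and IAPLTR1_Mm-int with IAPLTR2_Mm-int (0.00075). Without ES replicate 2, 357 LTR rows were tested, 161 fewer than with it, and their median log2 fold change of ES over Neuro2A in edgeR was 1.01 instead of 6.17. The rows lost had passed the filter on low counts only through their reads in ES replicate 2, and this entry leans them to higher in ES. The 13.7% beside 7.14% is thus no result about LTR rows, since the 71 can include rows that rest on that plate. Without that plate, a fit added after seeing the data, DESeq2 called 1 LTR row higher and 0 lower in ES than in MEF, against 0.617% and 0.0294% of all features. It called 9 higher and 14 lower than in Neuro2A, against 3.11% and 0.654% of all features. The row called against MEF was RLTRETN_Mm-int with ETnERV (adjusted p = 0.00126). Of the 14 lower than in Neuro2A, 12 were IAP rows, among them IAPLTR1_Mm (0.0215), IAPLTR1_Mm-int (0.0148) and IAPLTR1a_Mm (0.0270). RLTR9E (0.00018) and RLTR10C-int (0.00917) were among the 9 higher.

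Without repeat-rich wells edgeR called 1 LTR row higher and 5 lower in ES than in Neuro2A, of 365 tested, where it called 0.46% and 0.0729% of 13709 features. The 5 were IAPLTR1_Mm (log2 fold change -5.13, SE 0.75, adjusted p = 0.0113), IAPLTR1_Mm-int (-5.27, SE 0.81, adjusted p = 0.0127), IAPLTR1a_Mm (-5.64, SE 0.97, adjusted p = 0.0231), IAPLTR1_Mm-int with IAPLTR2_Mm-int (adjusted p = 0.0267) and RLTR33 (-5.78, SE 1.13, adjusted p = 0.0355). RLTR33 had 81% of its Neuro2A reads in 1 well. No LTR row was called against MEF, where 19 of 365 had an unadjusted p under 0.05 (5.21%, against 7.49% of all features) and 0.0948% of features were called higher and 0% lower. As for the IAP family, the setting itself lowers the repeat reads of ES replicate 2 and with them the spread of the ES plates. Without ES replicate 2 and with carried-over reads subtracted, also chosen after seeing the data, edgeR called 3 LTR rows higher in ES than in MEF (IAPLTR1_Mm-int, RLTR1B-int and RLTRETN_Mm-int with ETnERV) and ETnERV2 with RLTRETN_Mm-int lower, where it called 0.544% of features higher and 0.853% lower. The subtraction left 0 reads of IAPLTR1_Mm-int in MEF, against 1029 RPM before it, so that call rests on the subtraction. It also took RLTRETN_Mm-int with ETnERV from 3 reads to 0 in MEF. ETnERV2 with RLTRETN_Mm-int went to 0 in ES replicate 3, and most of its MEF reads lay in 1 well. The size of these calls thus also leans on the subtraction. The log2 fold changes of the 3 rows called higher were 12.8, 13.9 and 14.3. Against Neuro2A it called 0 of 353 LTR rows, with 18 higher and 33 lower at an unadjusted p under 0.05 (5.10% and 9.35%, against 5.67% and 4.79% of all features), and 0.0515% of features higher and 0.0294% lower.

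Genes that silence LTR elements were compared next. Of 26 such genes, 4 had no read in Neuro2A and 5 none in MEF, 25 were tested and 0 called by edgeR in either comparison. At an unadjusted p under 0.05, 8 of the 25 were higher in ES than in MEF and 3 than in Neuro2A, beside 3.58% and 5.82% of all features. Zfp42 was among both and is also in the list of ES markers, so it was known to be higher in ES. Every ES plate was above MEF for 18 and above Neuro2A for 15 of the 25, beside 29.6% and 31.8% of all features. Their median log2 fold change was 1.50 against MEF and 1.15 against Neuro2A, beside 1.06 and 1.99 over all features tested. Dnmt3l, which assists the enzymes of de novo DNA methylation, stood at 1181, 876 and 1041 RPM in ES and 0 in Neuro2A and MEF (unadjusted p = 0.000706 and 0.000685). Uhrf1, which brings the maintenance DNA methyltransferase to replicated DNA, stood at 366, 160 and 273 in ES, 29.8 in Neuro2A and 2.05 in MEF. Trim28, the corepressor that zinc finger proteins bring to LTR elements, stood at 672, 427 and 507 in ES, 210 and 176. Setdb1, its H3 lysine 9 methyltransferase, stood at 47.0, 26.7 and 121 in ES, 27.6 in Neuro2A and 49.5 in MEF, with overlapping groups. Neuro2A and MEF, which differed 7.47 times in IAP reads, stood at 137 and 74.7 for Dnmt1, the maintenance methyltransferase, at 171 and 208 for Dnmt3a and at 252 and 25.9 for Dnmt3b, the de novo methyltransferases.

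Neuro2A and MEF had 1 plate each, and their ratio has no replicate check. The ratio of Neuro2A to MEF was 7.47 for IAP, with an exact 95% interval of 7.34 to 7.597 that covers counting error only, and 5.30 for MMERV (4.97 to 5.66). It was 0.264 for ETn, 0.183 for MERVL and 0.487 for MT2. Of the rows most higher in Neuro2A than in MEF by ratio, 3 of 5 were IAP rows, and RLTR44-int (121 RPM against 0) and RLTR22_Mus with RLTR22_Mur (71.0 against 0) were the others. IAP has 134 of the 1533 LTR rows and RLTR 521. Of the Neuro2A reads of RLTR22_Mus with RLTR22_Mur, 75% lay in 1 well.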

How the data were processed

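The deposited files hold raw hit counts, per the readme deposited with the series, and they were used as the authors left them. Per the submitters' processing notes reads were placed with Bowtie. Its version, the genome build, the repeat annotation and the counting of reads with several hits were not given in the sources used here. Of the rows, 1284 carry more than 1 repeat name and were placed by the first. They hold 7.74% of LTR reads. A row absent from a file was taken as 0.

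Counts of wells with at least 1000 gene reads were summed per plate and divided by gene reads, with mitochondrial and repeat rows kept out of library sizes. The 5 plates, as rows or as sums of each family, were fitted with edgeR 4.0.16 (glmQLFit, glmQLFTest, TMM from genes, Benjamini-Hochberg over all features at 0.05), for the contrasts of ES to MEF and of ES to Neuro2A, and with DESeq2 1.42.0 as an alternative. The lone MEF and Neuro2A plates were assumed to vary like the ES plates. Each SE given with an edgeR log2 fold change is derived from the test. It is the absolute log2 fold change divided by the square root of the quasi-likelihood F statistic. The code was tested on simulated data. For subtraction, a single share of the source plate's summed reads was removed from each row's sum in the target plate, with results under 0 set to 0. MEF was the source for ES replicate 3 and Neuro2A the source for MEF, and reads were not matched by barcode. The share was the median over genes of at least 100 CPM in the source and at least 10 times every plate not involved. Ratios to ES replicates 1 and 3 use their geometric mean, with levels under 3 reads set to 3 reads. Rows were named by rule: the 2 with most reads of each family, the 10 largest ratios each way with every ES plate on one side and at least 20 reads per 1000000 gene reads in the higher group, and 5 each way for Neuro2A against MEF. The members, gene lists and tests were chosen with earlier results of these data known. Besides R 4.3.3, scipy 1.17.1, matplotlib 3.10.9, pandas 2.3.3, numpy 2.4.6 and python 3.11.15 were used. IAPLTR1_Mm, IAPLTR1a_Mm, IAPEz-int, RLTRETN_Mm-int, MT2_Mm and RLTR33 were chosen after their values were seen.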

Additional observations from a re-analysis of the deposited data

Results flagged for a closer look

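LTR reads were also found in wells left out for holding under 1000 gene reads, which no comparison above uses. They numbered 151 in ES replicate 1, 2710 in ES replicate 2, 47 in ES replicate 3, 502 in Neuro2A and 137 in MEF, from 3, 30, 2, 10 and 4 wells. No control wells without a cell are named in the labels, so the number of such reads in an empty well is not known. The limit of 3 reads is set for a single row and cannot be held against these sums.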

How the results depend on the processing

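No paired analysis was possible because Neuro2A and MEF have 1 plate each and the labels give no replicate numbers. Taking all 96 wells changed the sign of no family or named row. The log2 ratio of total LTR level, ES over MEF, was 1.41 and ran from -0.17 (without ES replicate 2) to 2.20 with 1 ES plate left out. It was 0.55 without repeat-rich wells, 0.56 per 1000000 of all reads and 0.40 as the median over wells. ES over Neuro2A was 0.33, ran from -1.25 (without ES replicate 2) to 1.12, and was -0.15 without the deepest barcode of ES replicate 2, -0.44 per 1000000 of all reads, -0.58 as the median over wells, -0.84 without wells of over 2 repeat reads per gene read and -0.16 without the top well of each plate. Neuro2A over MEF was 1.08, and 1.12 without barcodes ending in G, 1.25 with carried-over reads subtracted, 1.39 without repeat-rich wells, 1.00 per 1000000 of all reads, 0.98 as the median over wells and 1.23 without the top wells. The LTR share of repeat reads in Neuro2A was 15.9%, 14.9%, 14.2% and 14.5% without barcodes ending in G, without repeat-rich wells, as the median over wells and without the top well. In MEF it was 7.88%, 7.17%, 6.12% and 7.49% under those settings and 6.98% with carried-over reads subtracted.

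Without ES replicate 2, 8 families changed sign against MEF and 4 against Neuro2A (MTA, MTB, MTD and MTE), and 25 and 13 of 70 named rows. Against MEF the sign also changed for 5 families without repeat-rich wells, 3 per 1000000 of all reads, 3 as the median over wells, and for IAP alone with carried-over reads subtracted, without ES replicate 1 and without ES replicate 3. Against Neuro2A it changed for MTA and MTE without repeat-rich wells. The direction of IAP, ETn, RLTR, MERVL, MuRRS and MMERV against Neuro2A held in the ratio of RPM levels under every setting that gave a value, while the fitted log2 fold change of MMERV was 0.10 in edgeR and -1.25 without the deepest barcode, -3.75 without ES replicate 2 and -2.99 without repeat-rich wells. ETn of Neuro2A over MEF changed sign without repeat-rich wells. The median over wells gave no value for 6 family ratios. Counts of called rows moved from 0 under DESeq2 (10 higher against MEF, 71 higher and 2 lower against Neuro2A, and 2 family sums higher), DESeq2 without ES replicate 2 (1 higher against MEF, 9 higher and 14 lower against Neuro2A), without repeat-rich wells (1 higher, 5 lower and 1 family sum lower against Neuro2A) and without ES replicate 2 with carried-over reads subtracted (3 higher and 1 lower against MEF). The last 3 settings, the top-well setting and the Neuro2A over MEF settings were chosen after seeing the data. The cause was not tested. In ES replicate 2, 262517 gene reads set the limit, since 3 reads are 11.4 RPM there.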
